A study of Homo sapiens with 3 samples.

Results

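The genes described here are the WNT ligands, the Frizzled receptors and the genes that relay and restrain the WNT signal, 52 in number, out of 22439 genes with a RefSeq symbol on the array. They were chosen by name. A probe belonged to one of them when its RefSeq accession mapped to that gene in the GRCh38.p14 annotation, which gave 64 probes, with 1 probe for 42 of the genes and 2 or more for the other 10. RNA came from A549 cells, an established line from a human lung adenocarcinoma, grown in RPMI 1640 medium. The cells had been treated with Lipofectamine RNAiMAX, a lipid transfection reagent, in all 3 groups. The mock group received the reagent without a precursor, and the others received a precursor of *miR-139-5p* or of *miR-139-3p* at 10 nM. Each group was 1 sample on 1 Agilent array of 1 colour. Without replicates no difference could be tested, and precision is limited by having only 3 arrays. Slide 1 carried the mock and *miR-139-5p* samples and slide 2 the *miR-139-3p* sample, so slide and transfection cannot be told apart for *miR-139-3p*. Both comparisons used the same mock array. No array carried a control precursor, so effects of a given miRNA and of transfecting any small RNA cannot be told apart. In bulk RNA, fewer cells of a type and less RNA per cell cannot be told apart either.

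WNT proteins are secreted, lipid-modified ligands that bind Frizzled receptors together with the co-receptors *LRP5* and *LRP6*. Without a ligand, a complex built on *AXIN1* and *APC* marks β-catenin, the product of *CTNNB1*, for destruction; with a ligand, β-catenin accumulates and joins TCF and LEF factors on DNA. Several genes that this pathway switches on, among them *AXIN2*, *NKD1*, *ZNRF3*, *RNF43*, *LGR5* and *DKK1*, dampen or tune the signal in turn. In the lung, WNT signals take part in branching of the airways and in renewal of alveolar cells.

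Both transfected miRNAs are arms of a single hairpin, encoded by *MIR139* within an intron of *PDE2A* on the minus strand of chromosome 11. Their mature sequences, from RefSeq on GRCh38.p14, are shown 5′ to 3′ because the seed, the part that pairs with target mRNAs, differs between them. Bases 2 to 8, the seed, are in capitals.
miR-139-3p, chr11:72615066-72615088: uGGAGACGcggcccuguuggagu
miR-139-5p, chr11:72615102-72615124: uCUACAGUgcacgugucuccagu
Each has 23 bases, and the seeds are different. Seed sites in the members' transcripts were not analysed here.

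A spot was taken as measured only when the scanner software called it well above background. By this call 38 of the 52 members had a probe that was measured on at least 1 array, and 30 had one on every array. The number was 37 on the mock array, 30 under *miR-139-5p* and 34 under *miR-139-3p*. The members that were not well above background on any array were *WNT1*, *WNT2*, *WNT8A*, *WNT8B*, *WNT9A*, *WNT9B*, *WNT10A* and *WNT16* among the ligands, the receptor *FZD10*, the antagonists *DKK2*, *SFRP2* and *SFRP5*, the R-spondin receptor *LGR5* and the transcription factor *LEF1*. These 14 genes are left without a value. Signals below are the processed spot signals of each array in arbitrary units, and they are not scaled between arrays. As a gauge of overall brightness, the 75th percentile over spots other than controls stood at 93.6 in mock, at 88.9 in the *miR-139-5p* sample and at 81.0 in the *miR-139-3p* sample. Log2 fold changes are differences of log2 signals after each array was scaled to its own 75th percentile. A level of one probe is not comparable with that of another, so the members' signals are read within a gene only. Where 3 signals are given without labels they are in the order mock, *miR-139-5p*, *miR-139-3p*, and a pair of fold changes is in the order *miR-139-5p*, *miR-139-3p*.

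Epithelial markers matched the labelled cell line. All 6 of them were well above background on each array. Their unscaled signals, added up only to show how bright each list was on an array, came to 102000 in mock, 63100 under *miR-139-5p* and 60500 under *miR-139-3p*. By gene they ran from -1.08 for *CLDN7* to 0.97 for *EPCAM* with *miR-139-3p*, and from -0.93 to 0.17 for the same genes with *miR-139-5p*. Of 6 fibroblast markers, *COL1A2*, *COL3A1*, *PDGFRA* and *LUM* were not above background. *COL1A1*, at 40.1, 101.4 and 22.7, and *PDGFRB*, at no more than 11.5, were above it on every array. The list summed to between 38.9 and 113 over the arrays. The 5 blood markers summed to between 94.5 and 323, most of it from *CD14*, which read 292.3, 304.1 and 64.0. *PTPRC* was also above background on every array. The 5 endothelial markers summed to between 21.2 and 39.5, and of these *CDH5* was above background on every array. Whether these lists have any part in the values below was not tested. Over all protein-coding genes with a value, 30.5% were below -0.5 and 23.0% above 0.5 with *miR-139-3p*, a log2 fold change of 0.5 in either direction being the threshold used throughout. With *miR-139-5p* 12.2% were below and 10.6% above. The measured fold changes of these genes had an SD of 0.85 in the *miR-139-3p* comparison and 0.45 in the other, so more genes of any kind lie past the threshold in the first comparison. For genes with several probes, the median SD between the probes of a gene was 0.28 and 0.15, respectively, and it was 0.37 and 0.23 for genes with a mean signal under 30. No replicate error exists beside it.

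**Figure D1:**
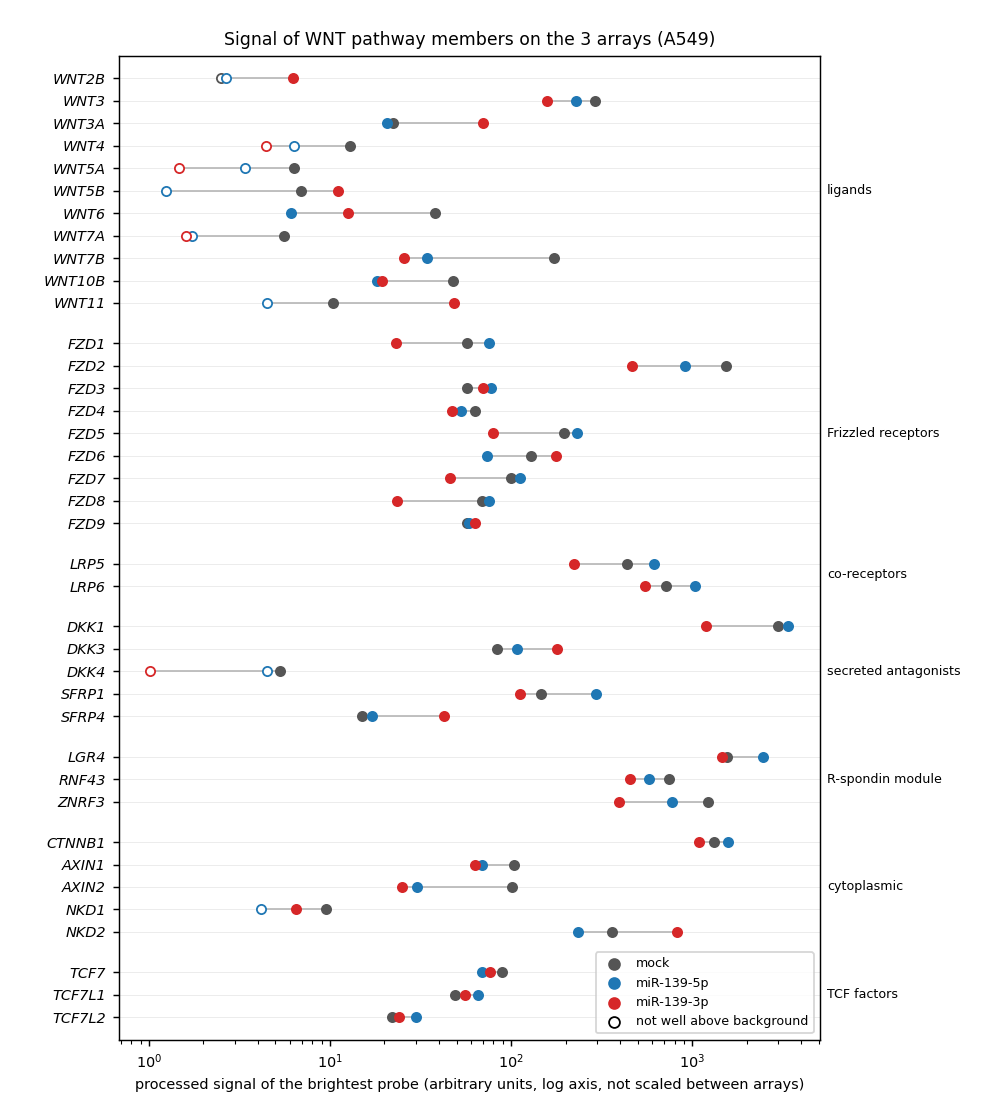
Processed signal (arbitrary units, log axis, not scaled between arrays) of the brightest probe of each of the 38 members measured on at least 1 array, with 1 point per array (grey for mock, blue for *miR-139-5p*, red for *miR-139-3p*) and open points where the probe was not well above background. *FZD2* runs from 463.5 with *miR-139-3p* to 1537 in mock, *WNT7B* from 25.6 to 172.0, and 6 ligands have an open point on at least 1 array.

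Of the 19 ligands 11 were measured on any array, and 6 of the 11 were not above background on at least 1 array. With *miR-139-3p*, 5 of the 11 were below the threshold and 4 above it, beside 30.5% and 23.0% of protein-coding genes. Of these 11 values 4 were bounds, which can fall on 1 side of mock only, with 1 among the lower and 1 among the higher ligands. With *miR-139-5p*, 10 ligands had a value, and 5 were below and none above, beside 12.2% and 10.6% of protein-coding genes. Of these 10, 5 had a value only because the mock array was bright, and could not have been above. Of the 5 lower ligands 2 were such bounds. With bounds among them, the ligand counts are a description only, and no excess over other genes is read from them.

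*WNT7B*, a ligand of the developing lung epithelium, was low in both transfected samples. Its brightest probe read 172.0 in mock, 34.3 under *miR-139-5p* and 25.6 under *miR-139-3p*, and another read 57.2, 11.7 and 6.10. Both probes placed the mock array far above the other two. The log2 fold change was -2.78 with *miR-139-3p*, with an SD of 0.34 between the probes, and -2.24 with *miR-139-5p*, with an SD of 0.02. With normexp these values were -1.06 and -0.99, in the same order. A further probe of *WNT7B* was left out, having only outlier spots in the mock and *miR-139-5p* samples.

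*WNT6* read 38.2 in mock, 6.13 under *miR-139-5p* and 12.6 under *miR-139-3p*. Its fold change was -2.57 with *miR-139-5p*, or -0.62 with normexp, and its value with *miR-139-3p* was -1.39, or -0.43 with normexp and so inside the threshold. The *miR-139-5p* reading lies close to the dimmest signals called above background on that array, 5.12. *WNT10B*, which is known for holding back fat cell formation, read 47.7, 18.1 and 19.3. Its fold changes were -1.33 under *miR-139-5p* and -1.10 under *miR-139-3p*, and with normexp they were -0.41 and -0.35, inside the threshold. *WNT3*, which is needed for the primitive streak and for limbs, read 292.4 in mock, 228.2 under *miR-139-5p* and 158.6 under *miR-139-3p*, for fold changes of -0.28 and -0.67.

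*WNT4*, known for its part in kidney and female reproductive tract development, was measured in mock alone, at 12.9, against 6.30 under *miR-139-5p* and 4.43 under *miR-139-3p*. It was thus at least 1.94-fold lower with *miR-139-5p* and at least 2.51-fold lower with *miR-139-3p*. Such a bound sets the dim array at the higher of its own signal and the lowest signal that was called above background there. *WNT5A*, the main ligand of β-catenin-independent signalling, read 6.35 in mock, 3.41 under *miR-139-5p* and 1.46 under *miR-139-3p*, and only the mock reading was above background. The bounds were at least 1.18-fold and 1.27-fold lower, which is inside the threshold. With *miR-139-3p* the value of *WNT5A* passed it in 5 of the 11 settings that gave one. *WNT7A* read 5.55, 1.74 and 1.61 in the same order, with bounds of at least 1.03-fold and 1.11-fold lower.

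On the other side stood *WNT11*, a ligand of cell movements in gastrulation. It read 10.4 in mock, 4.50 with *miR-139-5p*, where it was not above background, and 48.4 with *miR-139-3p*. Under *miR-139-3p* its log2 fold change stood at 2.42, with a range of 0.77 to 2.56 over the settings tried, the lowest from normexp. With *miR-139-5p* it was at least 1.94-fold lower. *WNT5B*, a close relative of *WNT5A*, read 6.91, 1.24 and 11.1, with only the first and last above background. Its fold change was 0.90 with *miR-139-3p*, but 0.15 with normexp, 0.42 with quantile normalization and 0.41 in the deposited log2 values. It was at least 1.28-fold lower with *miR-139-5p*. Its mock signal was near the floor of that array, which was 4.82.

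*WNT3A*, the ligand most used to switch on β-catenin in culture, had probes that disagreed. One read 22.3 in mock, 20.6 under *miR-139-5p* and 69.8 under *miR-139-3p*, and the other read 5.15, 3.33 and 4.48. The *miR-139-3p* fold changes were 1.85 and 0.01, with a mean of 0.93 and an SD of 1.31, so the mean is set by a single probe. With *miR-139-5p* the brighter probe gave -0.04. *WNT2B* was above background with *miR-139-3p* alone, at 6.24 against 2.49 in mock and 2.65 with *miR-139-5p*. It was at least 1.5-fold higher with *miR-139-3p* than in mock.

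Of the 10 Frizzled receptors 9 were measured on every array, so receptor values hold no bounds. With *miR-139-3p*, 5 were below the threshold, 1 was above it and 3 were within it, with a median of -0.90, where 30.5% of protein-coding genes were below and 23.0% above. With *miR-139-5p*, 2 were below, 1 was above and 6 were within, with a median of 0.21, where 12.2% and 10.6% of protein-coding genes were below and above.

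*FZD2* read 1537 in mock, 919.0 under *miR-139-5p* and 463.5 under *miR-139-3p*. Its fold changes of -0.67 and -1.52 put the mock array on top and the *miR-139-3p* array at the bottom. *FZD8* read 69.3, 75.9 and 23.6. Here the mock and *miR-139-5p* readings were close, at a fold change of 0.21, and the *miR-139-3p* reading alone was low, at -1.35. The same arrangement held for *FZD5*, with 197.0, 231.9 and 79.6. Its fold changes were 0.31 under *miR-139-5p* and -1.10 under *miR-139-3p*. *FZD1* read 56.9, 75.4 and 23.2, for 0.48 and -1.08. *FZD7*, which shares much of its sequence with *FZD1* and *FZD2*, read 99.6, 112.8 and 46.1, for 0.25 and -0.90. For *FZD1*, *FZD5*, *FZD7* and *FZD8* the *miR-139-3p* array was thus the low one, and the *miR-139-5p* array was slightly above mock. With normexp their *miR-139-3p* values were -0.39, -0.85, -0.52 and -0.57 in this order, so that of *FZD1* was inside the threshold.

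*FZD6*, a receptor of planar cell polarity, was the receptor past the upper threshold with *miR-139-3p*. It read 128.5 in mock, 74.1 under *miR-139-5p* and 176.3 under *miR-139-3p*, and its fold changes were -0.72 and 0.66. *FZD3*, its nearest relative, read 57.3, 78.0 and 69.6. It was at 0.52 under *miR-139-5p* and 0.49 under *miR-139-3p*, both at the edge of the threshold. The other two measured receptors stayed inside it. *FZD4*, the receptor for norrin in retinal vessels, read 63.3, 53.0 and 47.1, for -0.18 and -0.22. *FZD9* read 57.0, 58.6 and 63.2, for 0.11 and 0.36.

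Both co-receptors were above the threshold with *miR-139-5p*, as were 10.6% of protein-coding genes. *LRP5* read 438.7 in mock, 615.4 under *miR-139-5p* and 224.2 under *miR-139-3p*. The fold changes of *LRP5* were 0.56 and -0.76, so the transfected samples lay on opposite sides of mock, although the former was 0.48 with normexp. *LRP6* read 713.6, 1034 and 552.0, for 0.61 under *miR-139-5p* and -0.16 under *miR-139-3p*. The scaling decided the sign of the last value, which ran from -0.37 to 0.04 over the settings tried.

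**Figure D2:**
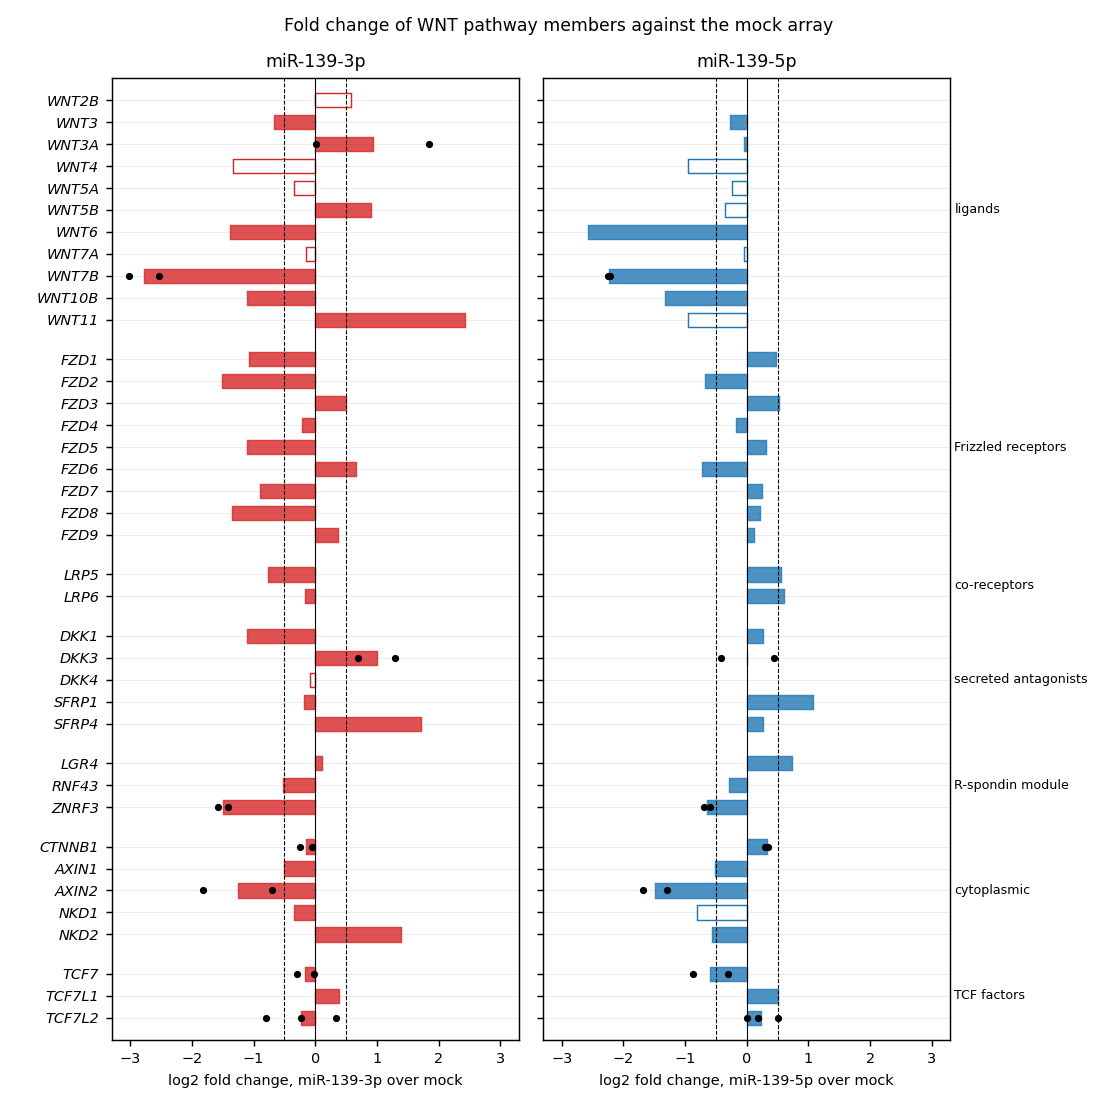
Log2 fold change over mock of the 38 members by role, with *miR-139-3p* on the left and *miR-139-5p* on the right; filled bars are measured on both arrays, open bars are bounds, black points are single probes of genes with several, and dashed lines mark the threshold of 0.5. The bars of *FZD1*, *FZD5*, *FZD7* and *FZD8* reach from -0.90 to -1.35 on the left and from 0.21 to 0.48 on the right.

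The plot of fold changes by role shows 5 of the 9 receptors past the lower line on the side of *miR-139-3p*, with *FZD3*, *FZD6* and *FZD9* above 0. Without replicate arrays, and with 30.5% of protein-coding genes below the threshold there, this is a description of these arrays.

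Of the 8 secreted antagonists 5 were measured. *DKK1* blocks *LRP5* and *LRP6* from joining the receptor. It read 2982 in mock, 3394 under *miR-139-5p* and 1198 under *miR-139-3p*, for fold changes of 0.26 and -1.11. *DKK3*, a divergent member of the Dickkopf family, read 84.2, 108.2 and 178.8 on one probe and 13.2, 9.43 and 18.5 on another. Both probes put the *miR-139-3p* array highest, with a mean fold change of 1.00 and an SD of 0.42. With *miR-139-5p* the probes lay on either side of mock, at 0.44 and -0.41, and their mean was 0.01. *DKK4* was above background in mock alone, at 5.30 against 4.49 and 1.02, and its bound with *miR-139-3p* was at least 1.06-fold lower.

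The secreted Frizzled-related proteins carry a Frizzled-like domain that binds WNTs outside the cell. *SFRP1* read 146.7 in mock, 293.8 under *miR-139-5p* and 111.8 under *miR-139-3p*. Its probe is printed in several spots, and the SD of log2 signal between them was between 0.041 and 0.070 on an array. With *miR-139-5p* it was the highest of all members, at 1.08, and with *miR-139-3p* it was at -0.18. *SFRP4* read 15, 17.0 and 42.4, for 0.26 under *miR-139-5p* and 1.71 under *miR-139-3p*, the latter 0.62 with normexp. Its other probe was above background with *miR-139-3p* alone, at 7.57 against 2.13 in mock, and so lay in the same direction.

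In the R-spondin module, *LGR4* is a receptor for R-spondins, and *RNF43* and *ZNRF3* are ubiquitin ligases that remove Frizzled receptors from the cell surface. *ZNRF3* read 1223 in mock, 773.4 under *miR-139-5p* and 395.6 under *miR-139-3p*. Its other probe read 153.6, 89.6 and 44.5. The probes agreed closely, with a mean fold change of -0.65 and an SD of 0.08 for *miR-139-5p*, and -1.50 and 0.11 for *miR-139-3p*. *RNF43* read 746.5, 579.8 and 451.8 and was at -0.29 and -0.52, so mock was highest for both ligases. *LGR4* read 1563, 2461 and 1462. It was at 0.73 with *miR-139-5p* and close to mock with *miR-139-3p*, at 0.11, where the settings tried ran from -0.10 to 0.38.

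Among the cytoplasmic members, *CTNNB1* encodes β-catenin itself. Its brighter probe, printed in 10 spots, read 1319 in mock, 1582 under *miR-139-5p* and 1098 under *miR-139-3p*, and the other read 196.6, 230.0 and 143.0. The mean fold changes were 0.32 and -0.15, with SDs of 0.03 and 0.14 between the probes, and both lay inside the threshold under every setting tried. The sign with *miR-139-3p* depended on the scaling, with a range of -0.36 to 0.02.

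*AXIN2*, a scaffold of the destruction complex and the most widely used readout of β-catenin activity, was low in both transfected samples. One probe read 101.4 in mock, 30.2 under *miR-139-5p* and 24.9 under *miR-139-3p*. The other read 57.4, 22.2 and 30.6. With *miR-139-5p* the probes gave -1.68 and -1.30, a mean of -1.49 and an SD of 0.27. With *miR-139-3p* they gave -1.82 and -0.70, a mean of -1.26 and an SD of 0.79. With normexp the means were -0.57 under *miR-139-5p* and -0.49 under *miR-139-3p*, the latter inside the threshold. The mock reading was the highest on either probe, whereas the order of the transfected samples differed between them. *AXIN1*, its constitutive counterpart, read 103.5, 68.8 and 63.3. Its fold changes of -0.52 and -0.50 sat on the threshold, and with *miR-139-3p* they ran from -0.71 to -0.23 over the settings.

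*NKD1* and *NKD2* bind Dishevelled and limit its signal. *NKD2* read 362.4 in mock, 233.6 under *miR-139-5p* and 822.2 under *miR-139-3p*. It was at -0.56 and 1.39, with the transfected samples on opposite sides of mock. *NKD1* read 9.47, 4.18 and 6.48, and the *miR-139-5p* reading was not above background. It was at least 1.76-fold lower with *miR-139-5p* and at -0.34 with *miR-139-3p*, where the settings tried ran from -0.86 to -0.01.

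Of the TCF and LEF factors, which carry β-catenin to DNA, 3 of 4 were measured, and with *miR-139-3p* all 3 were inside the threshold in the reported setting. *TCF7* read 89.6 in mock, 69.1 under *miR-139-5p* and 76.6 under *miR-139-3p* on one probe and 27.2, 14.2 and 19.2 on another. The means were -0.59, with an SD of 0.40, and -0.16. *TCF7L1*, often a repressor, read 49.1, 66.1 and 55.5, for 0.50 and 0.39. The 3 probes of *TCF7L2* gave between 0.00 and 0.51 with *miR-139-5p*, with a mean of 0.23. With *miR-139-3p* they gave between -0.80 and 0.34, with a mean of -0.23 and an SD of 0.57, so no direction can be read for this gene.

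Counted together, 38 members had a value with *miR-139-3p*. Of these, 16 were below the threshold, 8 above it and 14 within it, that is 42.1% below and 21.1% above, beside 30.5% and 23.0% of protein-coding genes. The median over the members was -0.23, and it was -0.13 over protein-coding genes. Processing moved these figures, to a median of -0.52 after quantile normalization and -0.57 in the deposited log2 values, to 20 members below and 6 above after quantile normalization, where 31.5% and 20.3% of protein-coding genes were, and to 10 below and 5 above after normexp background correction, where 21.3% and 8.82% were. With *miR-139-5p* 36 members had a value, of which 13 were below, 6 above and 17 within, that is 36.1% and 16.7% beside 12.2% and 10.6%. Of the 13 lower members 3 were bounds, and after normexp 4 were below and 3 above, where 4.61% and 3.56% of protein-coding genes were. Without scaling 13 of 37 were below and 3 above, where 15.6% and 8.01% of protein-coding genes were. The median with *miR-139-5p* was -0.11, or 0.06 over the members measured on both arrays, and -0.01 over protein-coding genes. The members with *miR-139-5p* thus spread to both sides of a middle that lay near 0. A filter on dim signal lets a gene in through the array where it is bright, so these counts are given as a description of the members that passed it.

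**Figure D3:**
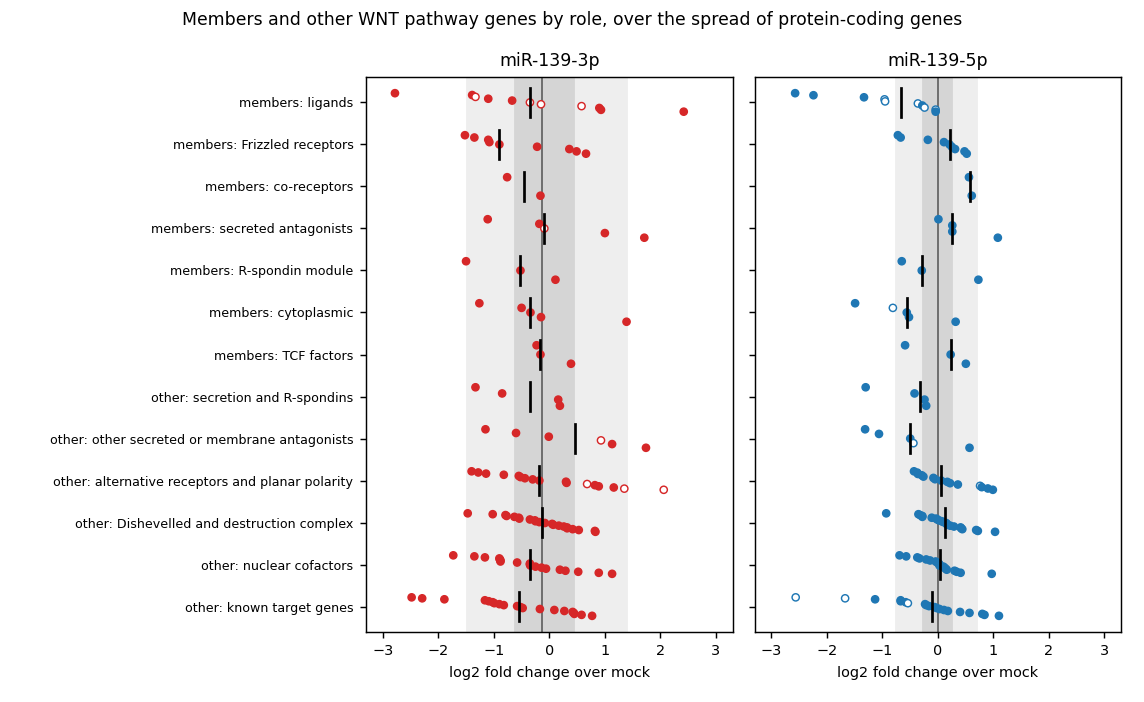
Log2 fold change over mock of the members by role and of the other WNT pathway genes by list (1 point per gene, open for bounds, short black lines for medians), over the spread of protein-coding genes (dark band from the 25th to the 75th percentile, pale band from the 5th to the 95th, grey line at the median). The receptor median is -0.90 under *miR-139-3p* and 0.21 under *miR-139-5p*, and the known target genes reach down to -2.48 with *miR-139-3p*.

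The rest of the pathway was taken from 6 lists of 105 genes, of which 103 were on the array. Signals given for these genes below are of the brightest probe, while fold changes are means over the probes measured on both arrays. With *miR-139-3p* 88 had a value, and 36 were below the threshold, 17 above it, 4 of these as bounds, and 35 within it, with a median of -0.26. Of protein-coding genes 30.5% were below and 23.0% above. With *miR-139-5p* 85 had a value, 13 were below, 3 of these as bounds, 13 above and 59 within, and the median was -0.01, beside 12.2% of protein-coding genes below and 10.6% above. By list, as the plot of roles shows, the counts with *miR-139-3p* were 2 below and 0 above among 4 genes of WNT secretion and R-spondins, and 2 below and 3 above among 6 further antagonists. They were 6 and 6 among 17 alternative receptors and planar polarity genes, and 7 and 3 among 22 genes of Dishevelled and the destruction complex. Nuclear cofactors had 8 below and 3 above among 19, and known target genes 11 below and 2 above among 20. With *miR-139-5p* the lists in this order had 1 below and 0 above of 4, 2 and 1 of 5, 0 and 4 of 15, 1 and 3 of 22, 2 and 1 of 19, and 7 and 4 of 20.

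Among the known targets the lowest with *miR-139-3p* was *FOXQ1*, a forkhead factor that read 290.9 in mock, 411.0 under *miR-139-5p* and 45.2 under *miR-139-3p*. It was at -2.48 under *miR-139-3p* and 0.57 under *miR-139-5p*. *GREM1*, a BMP antagonist, read 58.2, 34.8 and 10.3, for -0.67 and -2.29. *BIRC5*, which encodes survivin and also rises and falls with cell division, read 6608, 5348 and 1540, for -0.23 and -1.89. *SOX9*, a factor of progenitor cells, read 49.5, 100.7 and 21.6. It was the highest of these genes with *miR-139-5p*, at 1.1, and was at -0.99 with *miR-139-3p*. *EPHB3*, an ephrin receptor, read 28.0, 12.2 and 13.7, for -1.13 under *miR-139-5p* and -0.82 under *miR-139-3p*. The targets most often quoted were closer to mock. *MYC* read 1329, 1129 and 824.6, for -0.16 under *miR-139-5p* and -0.48 under *miR-139-3p*. *CCND1*, encoding cyclin D1, read 560.7, 576.1 and 430.8, for 0.11 and -0.17. Known targets of β-catenin therefore lay at very different values on the same array, from -2.48 to 0.77 with *miR-139-3p*. With *miR-139-5p* the lowest were bounds, of genes named after their values were seen. *ASCL2*, a factor of intestinal stem cells, read 31.7, 1.60 and 33.0 and was at least 5.88-fold lower with *miR-139-5p*. *SP5* read 17.1, 2.44 and 19.8 and was at least 3.18-fold lower. Both were inside the threshold with *miR-139-3p*, at 0.27 and 0.42.

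At the cell surface, *KREMEN1* and *KREMEN2* encode receptors for *DKK1*. *KREMEN1* read 166.5 in mock, 63.6 under *miR-139-5p* and 95.3 under *miR-139-3p*, for -1.31 and -0.60. *KREMEN2* read 113.5, 51.8 and 327.2, for -1.06 and 1.74, the latter the highest value among the genes of these 6 lists measured on both arrays. The glypican *GPC4*, named after its values were seen, was above background with *miR-139-3p* alone, at 17.4 against 2.64 in mock and 3.60 with *miR-139-5p*, and was at least 4.18-fold higher than in mock. *LGR6*, a receptor for R-spondins, read 228.4, 88.3 and 78.4, and its fold changes of -1.30 and -1.33 were nearly the same. *ROR1*, a receptor for WNT5A, read 435.2, 927.8 and 277.5, for 0.99 under *miR-139-5p* and -0.55 under *miR-139-3p*. *ROR2* read 7.95, 7.86 and 12.7 and was at 0.89 with *miR-139-3p*, level with *PYGO1* below. *GPC3*, a heparan sulphate proteoglycan, read 22.7, 40.1 and 43.7, and was above mock in both, at 0.90 and 1.16. *WLS*, which escorts WNT proteins out of the cell, read 43.3, 42.9 and 48.1 and stayed inside the threshold, at -0.24 and 0.19. Under *miR-139-5p* the SD between probes was 0.42 for *WLS* and 0.43 for *ROR1*.

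Inside the cell, *BCL9*, which links β-catenin to Pygopus, read 56.2 in mock, 104.4 under *miR-139-5p* and 14.7 under *miR-139-3p*. Its fold changes of 0.97 and -1.73 had opposite signs. *DACT2* read 53.5, 47.2 and 16.7, for -0.11 and -1.47, and its relative *DACT3* read 9.82, 13.8 and 18.6, for 0.57 and 1.13. *AMER1*, a membrane anchor of the destruction complex, read 73.6, 142.7 and 92.3, for 1.03 and 0.53. *APC2*, a relative of *APC*, read 67.9, 33.9 and 73.6, for -0.93 and 0.32. *APC* itself read 57.2, 73.8 and 59.1 and *GSK3B*, its partner kinase, 434.4, 338.9 and 502.1. Neither passed the threshold, with 0.44 and 0.26 for *APC* and -0.28 and 0.42 for *GSK3B*. The co-repressor *TLE4* and the Pygopus gene *PYGO1* were at 1.13 and 0.89 with *miR-139-3p*, but their probes differed with SDs of 0.97 and 0.79, and with *miR-139-5p* they were at 0.14 and 0.02.

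TCF and LEF factors recognise a short run of bases, and the members' promoters were searched for it. The window was 250 bases before to 50 after the annotated start (RefSeq, GRCh38.p14), and the letters searched on both strands were CTTTG followed by AA, AT, TA or TT, with no other motif. Of 35116 promoters, 4829 (13.8%) held a match. The table held 42 promoters of 35 members, and 4 of them held a match, in *DKK1*, *TCF7*, *TCF7L2* and *WNT3*. *WNT7B*, *WNT11* and *AXIN2* were not in the table. The window of *WNT6* held no match. The sequences are shown for the members with a match before the start, a choice made after the search, with the matching letters in capitals; in *TCF7* the match is on the minus strand and reads as its complement.
DKK1, chr10:52314171-52314226, plus strand: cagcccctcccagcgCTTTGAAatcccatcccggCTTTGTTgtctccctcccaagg
TCF7, chr5:134123553-134123589, plus strand: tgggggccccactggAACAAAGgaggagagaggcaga
TCF7L2, chr10:113126485-113126521, plus strand: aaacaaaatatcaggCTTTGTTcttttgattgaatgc
The *DKK1* stretch lies between bases 110 and 55 before the start and was the only one to hold a pair of matches. With *miR-139-3p* the genes below these sequences were at -1.11 for *DKK1*, -0.16 for *TCF7* and -0.23 for *TCF7L2*. The letters describe these windows only and say nothing about binding in A549 cells.

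Which members passed the threshold also depended on how the arrays were processed. Over 13 settings, the reported one included, 9 of the 16 members below the threshold with *miR-139-3p* stayed below it in every setting that gave a value. These were *WNT3*, *WNT7B*, *FZD2*, *FZD5*, *FZD7*, *FZD8*, *LRP5*, *DKK1* and *ZNRF3*. Of the 8 above it, *WNT11*, *DKK3*, *SFRP4* and *NKD2* stayed above. With *miR-139-5p*, *WNT6*, *WNT7B*, *FZD2* and *AXIN2* of the 13 lower members and *SFRP1*, *LRP6* and *LGR4* of the 6 higher ones stayed past it. The other calls were lost in at least 1 setting. With *miR-139-3p* the lower ones ran from -1.85 to -0.10 for *WNT4*, from -1.74 to -0.43 for *WNT6*, from -1.39 to -0.35 for *WNT10B*, from -1.33 to -0.39 for *FZD1*, from -0.72 to -0.32 for *RNF43*, from -0.71 to -0.23 for *AXIN1* and from -1.82 to -0.49 for *AXIN2*. The higher ones ran from 0.01 to 1.53 for *WNT2B*, from 0.49 to 1.85 for *WNT3A*, from 0.15 to 1.03 for *WNT5B* and from 0.46 to 0.80 for *FZD6*. With *miR-139-5p*, *WNT4*, *WNT11* and *NKD1* came as near to mock as -0.10, -0.10 and -0.07, *WNT10B*, *FZD6*, *ZNRF3* and *NKD2* as -0.41, -0.42, -0.49 and -0.44, and *AXIN1* and *TCF7* as -0.30 and -0.23. The higher *LRP5*, *FZD3* and *TCF7L1* came down to 0.48, 0.21 and 0.31. Some members inside the threshold passed it in other settings. With *miR-139-3p*, *WNT5A* reached -1.92, *WNT7A* -1.57, *DKK4* -2.17 and *NKD1* -0.86. There *TCF7L2* reached -0.59, *FZD3* 0.63 and *TCF7L1* 0.52. With *miR-139-5p*, *FZD1*, *TCF7L2*, *WNT5A*, *WNT5B* and *WNT7A* each passed it in 1 setting. The range was wide for *WNT6* with *miR-139-5p*, from -2.64 to -0.62, and for *WNT7B* with *miR-139-3p*, from -3.07 to -1.06. It was narrower for *FZD2*, between -1.73 and -1.30, and for *ZNRF3*, between -1.71 and -1.08, in the *miR-139-3p* comparison.

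**Figure D4:**
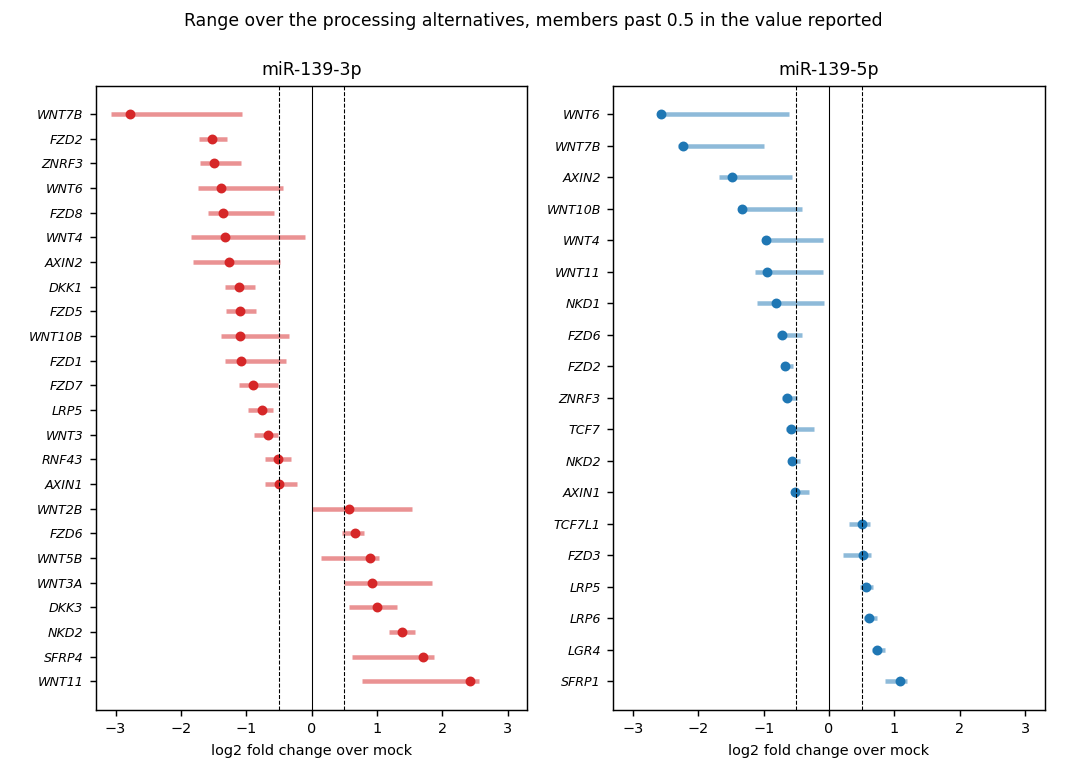
Log2 fold change over mock of each member past 0.5 in either direction, with the reported value as a point and the range over the processing settings as a line, for *miR-139-3p* on the left and *miR-139-5p* on the right; dashed lines mark the threshold. The line of *WNT4* reaches from -1.85 to -0.10 with *miR-139-3p*, while that of *NKD2* spans 1.18 to 1.58.

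The plot of ranges shows that no line crosses 0. Those of *WNT2B* with *miR-139-3p*, which ends at 0.01, and of *NKD1* with *miR-139-5p*, which ends at -0.07, come closest, and both genes are measured on 1 side of the comparison only.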

How the data were processed

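RNA from 3 A549 samples was hybridised to Agilent arrays of 1 colour (Cy3). The deposited spot intensity values came from the authors' run of Feature Extraction 12.1.1.1 and are background-subtracted but not normalized between arrays (array design on hg19). They also deposited a log2 table, whose values differed from quantile-normalized log2 signals by a median of at most 0.01. Of 60901 spots per array other than controls, between 48.1% and 53.1% were well above background, between 614 and 1526 outlier spots were left out, and 0 were saturated.

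The log2 processed signal was reduced by the log2 of the array's 75th percentile, and spots of a probe were averaged. A probe was measured when at least 50% of its spots were well above background. A gene's value is the mean over probes measured on both arrays; otherwise it is a bound from its brightest probe measured on 1 array. There was 1 sample per group, so no test was made. Values are named for every measured member and, from the other pathway lists, for the 5 highest and 5 lowest genes measured on both arrays of each comparison, and for *MYC*, *CCND1*, *APC*, *GSK3B* and *WLS*; *GPC4*, *ASCL2* and *SP5*, which are bounds, were added after their values were seen. The members and lists were chosen with earlier results of these data known. The threshold was 0.5 on the log2 scale, and 13 alternative settings were compared with this one. On simulated data, a copy of the mock array with 200 changed genes that had a value, 198 were recovered and 0 of 22106 unchanged names passed. The noise added to the copy had an SD of 0.06 on the log2 scale, like that between spots of a probe on 1 array. Unchanged names could therefore hardly pass, and the run gives no rate of false calls between separate samples. Python 3.11.15, numpy 2.4.6, pandas 2.3.3, matplotlib 3.10.9, R 4.3.3 and limma 3.58.1 were used. The time between transfection and RNA extraction for the arrays is not given in the sources used here.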

Additional observations from a re-analysis of the deposited data

Results flagged for a closer look

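For 4 members the values with *miR-139-3p* and *miR-139-5p* lay past the threshold on opposite sides of mock, 11.1% of the 36 members with both values, beside 4.29% of protein-coding genes; both comparisons share the mock array. The difference between the transfected arrays, as log2 of *miR-139-3p* over *miR-139-5p*, follows in sign and in size past 1 from the way these genes were picked and is given as a description. It was 3.38 for *WNT11*, where the *miR-139-5p* side is not above background and the value is a bound, 1.95 for *NKD2*, 1.38 for *FZD6* and -1.32 for *LRP5*. None of the 4 held both calls under every setting tried. With *miR-139-5p* the value of *WNT11* reached -0.10, that of *NKD2* -0.44, that of *FZD6* -0.42 and that of *LRP5* 0.48, and *FZD6* reached 0.46 with *miR-139-3p*. With 1 array per group these differences were not tested. The arrays lay on different slides, so slide and transfection cannot be told apart.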

How the results depend on the processing

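No member past the threshold changed sign under the alternatives that gave it a value, at most 12 for each member, since the threshold of 1 changes counts only. Of 867 single values compared, 789 moved by less than 1 median SD between a gene's probes and 78 by more. For members with 1 probe, the brightest probe and the median over probes return the reported value by construction. Part of the 789 was thus fixed in advance, and the count is no measure of stability. With quantile normalization the median over the members with *miR-139-3p* was -0.52, and with the deposited log2 values it was -0.57, in place of -0.23. With *miR-139-5p* the median was 0.11 without a filter on dim probes and 0.06 with probes detected on all arrays only, in place of -0.11. With normexp, which adds an offset of 50 and so pulls dim genes toward 0 by construction, the members with *miR-139-3p* numbered 10 below and 5 above the threshold, and those with *miR-139-5p* 4 below and 3 above (protein-coding genes 21.3% and 8.82%, and 4.61% and 3.56%). With probes detected on all arrays only, 5 of 30 were above with *miR-139-3p* (protein-coding genes 19.6%), and without scaling 3 of 37 were above with *miR-139-5p* (8.01%). A threshold of 1 left 3 above with *miR-139-3p*, and 4 below and 1 above with *miR-139-5p* (protein-coding genes 10.3% above, and 2.36% below and 1.85% above). Those left below with *miR-139-3p* were *WNT4*, as a bound, *WNT6*, *WNT7B*, *WNT10B*, *FZD1*, *FZD2*, *FZD5*, *FZD8*, *DKK1*, *ZNRF3* and *AXIN2* (protein-coding genes 12.9%). Other causes were not tested. All measured names had a median of 0.09 in the *miR-139-3p* comparison and 0.01 in the other; the scalings moved the former to between -0.12 and 0.23 and the latter to between -0.06 and 0.13. No paired analysis was possible because each group has 1 array, and leaving out a replicate was not run for the same reason.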
